A study of Mus musculus with 2 samples.

Results

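Oxidative phosphorylation (OXPHOS) is carried out by protein complexes in the inner mitochondrial membrane, and the genes described here are the nuclear ones that encode their subunits. They were taken by name: every mouse gene whose symbol starts with Ndufa, Ndufb, Ndufc, Ndufs, Ndufv, Uqcr, Cox4i, Cox5, Cox6, Cox7, Cox8 or Atp5, and Sdha to Sdhd, with pseudogene names left out. A gene also needed at least 100 counts summed over both libraries, which is the measured value that entered the choice. The names matched 97 genes, of which 87 reached the minimum and 10 did not, among 11172 genes of the whole table that reached it. Of the 87, 77 encode structural subunits, 8 are complex I assembly factors that share the Ndufa prefix, and Ndufa4l2 and Atp5s carry the prefix without being standard structural subunits. Just inside the minimum lay Ndufb2 (47 counts in the mutant and 89 in the control library), Ndufaf6 (138 and 84) and Cox6b2 (5 and 229), and just outside it Ndufb4c (9 and 20). Cox6b2 passed through the control library alone, so it had to differ.

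The libraries come from mesenchymal stem/progenitor cells (MSPC) of mouse bone marrow, stromal cells that can give rise to bone, cartilage and fat and that surround blood stem cells. The mutant library is from Ptpn11E76K/+/Nestin-Cre+ mice and the control library from Ptpn11+/+/Nestin-Cre+ mice, all of the C57BL/6 strain, so both groups carry the Cre transgene. Ptpn11 encodes the phosphatase SHP2, and E76K is an amino acid change that makes it more active. No age, sex or number of animals per library is stated in the sources used here. Nestin-Cre acts in cells that express Nestin and in their descendants, so where the change depends on Cre, MSPC outside that population would lack it. Cells were sorted fresh as CD45- Ter-119- CD31- CD140+ Sca-1+, and polyadenylated RNA was sequenced. There was 1 library per genotype, although the series text speaks of replicates. No test between genotypes is therefore possible, no p-value is given, and every difference below is a difference between these libraries.

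Complex I takes electrons from NADH and complex II takes them from succinate. Complex III passes them to cytochrome c and complex IV passes them on to oxygen. Complexes I, III and IV pump protons as they work, and complex V, the ATP synthase, uses the resulting gradient to make ATP. Most subunits are encoded in the nucleus and imported, and a few are encoded by mitochondrial DNA, so that both sets of genes must be expressed to build complexes I, III, IV and V. Bone marrow stromal progenitors are known to rely strongly on glycolysis and to raise mitochondrial respiration as they differentiate.

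Values are counts, or ratios of the mutant to the control library after scaling of the library totals. Each ratio has a 95% interval that covers counting error only. The call higher or lower was made where the entire interval was beyond 2-fold, with 1.5-fold as a second rule. The mutant library held 18010963 counts and the control library 22328659. Ptpn11 itself had 5039 counts in the mutant and 5958 in the control library, a ratio of 1.12 (1.08 to 1.17), and gene counts do not show the base change. The sort markers Pdgfra (1792 and 2073 counts) and Pdgfrb (3721 and 6075), 2 genes for CD140, were present in the mutant and the control library. Ly6a, for Sca-1, had 612 and 2177 counts, 2.67-fold lower. Of the 9 measured genes on the list of sort and MSPC markers, 3 (33.3%) were called higher, against 6.70% of all genes. These were Nes (2.76), Mcam (5.46) and Thy1 (2.57). Another 3 (33.3%) were called lower, against 7.95% of all genes, namely Ly6a, Cxcl12 (3.39-fold) and Prrx1 (2.75-fold). The excluded genes were near 0, with 12 counts of Ptprc, which encodes CD45, in the mutant and 1 in the control library, and 2 and 5 of Pecam1, which encodes CD31. A list of 15 monocyte and macrophage markers summed to 1030 counts (59.2 CPM) in the mutant and 334 (14.4 CPM) in the control library, with 2 and 8 of its genes at 0. All 4 of its genes with at least 100 counts were beyond 1.5-fold higher, against 16.3% of all genes. Of these 4, Lyz2 reached that minimum through the mutant library alone. Most counts came from these 4 genes: Lyz2 (276 in the mutant and 11 in the control library), Cd14 (237 and 121), Csf1r (229 and 149) and Cd68 (79 and 40). Mpeg1 had 62 and 5 and Mrc1 4 and 5, while Ccr2 and Fcgr1 were at 0 in both. Erythroid markers summed to 4 and 10 counts, endothelial markers to 18 and 1, and muscle and heart markers to 83 and 65, in the mutant and the control library in that order. The part of other cells in the results below was not tested.

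Most nuclear OXPHOS genes were moderately higher in the mutant library. The ratio exceeded 1 in 77 of the 87 genes (88.5%), against 52.2% of all 11172 genes. Their median log2 ratio was 0.41, or 1.33-fold, against 0.04 for all genes, and their interquartile range was 0.35 against 1.0. Together they took 171150 counts, or 0.95% of the mutant library, and 161873 counts, or 0.725% of the control library, a ratio of 1.41 (1.397 to 1.416). In bulk RNA, more cells of a type and more RNA per cell cannot be told apart.

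Few of the genes went far. Beyond 2-fold, 1 was called higher, Atp5g2, and 2 were called lower, Cox6b2 and Ndufa4l2, where 6.70% of all genes were called higher and 7.95% lower. Beyond 1.5-fold, 17 (19.5%) were higher, against 16.3% of all genes, which is near that background. The same rule found 3 (3.45%) lower, against 15.3% of all genes: Cox6b2, Ndufa4l2 and Ndufa1. The ratios of the set thus lay close together, with few beyond 2-fold in either direction.

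Transcript length and GC content moved with the ratio over all genes and are given here beside that shift. OXPHOS transcripts are short, with a median of 865 nucleotides against 2976 for all genes. Among other genes, 575 with transcripts of 500 to 1000 nucleotides had a median log2 ratio of 0.36, against 0.41 for the 43 OXPHOS genes in that length range. At 1000 to 2000 nucleotides the 28 OXPHOS genes had 0.40 against 0.23 for other genes, and at 2000 to 4000 the 7 OXPHOS genes had 0.37 against 0.07. Below 500 nucleotides the 8 OXPHOS genes had 0.36, which was lower than the 0.52 of 71 other genes. The OXPHOS medians lay between 0.36 and 0.41 over these ranges. Those of other genes were lower the longer the transcript, down to -0.18 for the 3543 above 4000 nucleotides. The 1 OXPHOS gene above 4000 nucleotides had 0.92. By GC content, the OXPHOS medians went from 0.34 below 45% to 0.51 at 55% and above. Those of other genes went from -0.16 to 0.20. With a smooth trend over length and GC removed, the median of the 87 genes was 0.08 against 0.03 for all genes, and 53 of 87 were above 1, since 24 went from above to below 1. Among these 24 were Cox6a1, Cox6b1, Cox7a2l, Ndufa7, Ndufs3, Atp5e, Atp5h and Uqcr11. The share of all genes above 1 with the trend removed was not worked out. The part of length and GC content in the shift was not tested further.

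**Figure D1:**
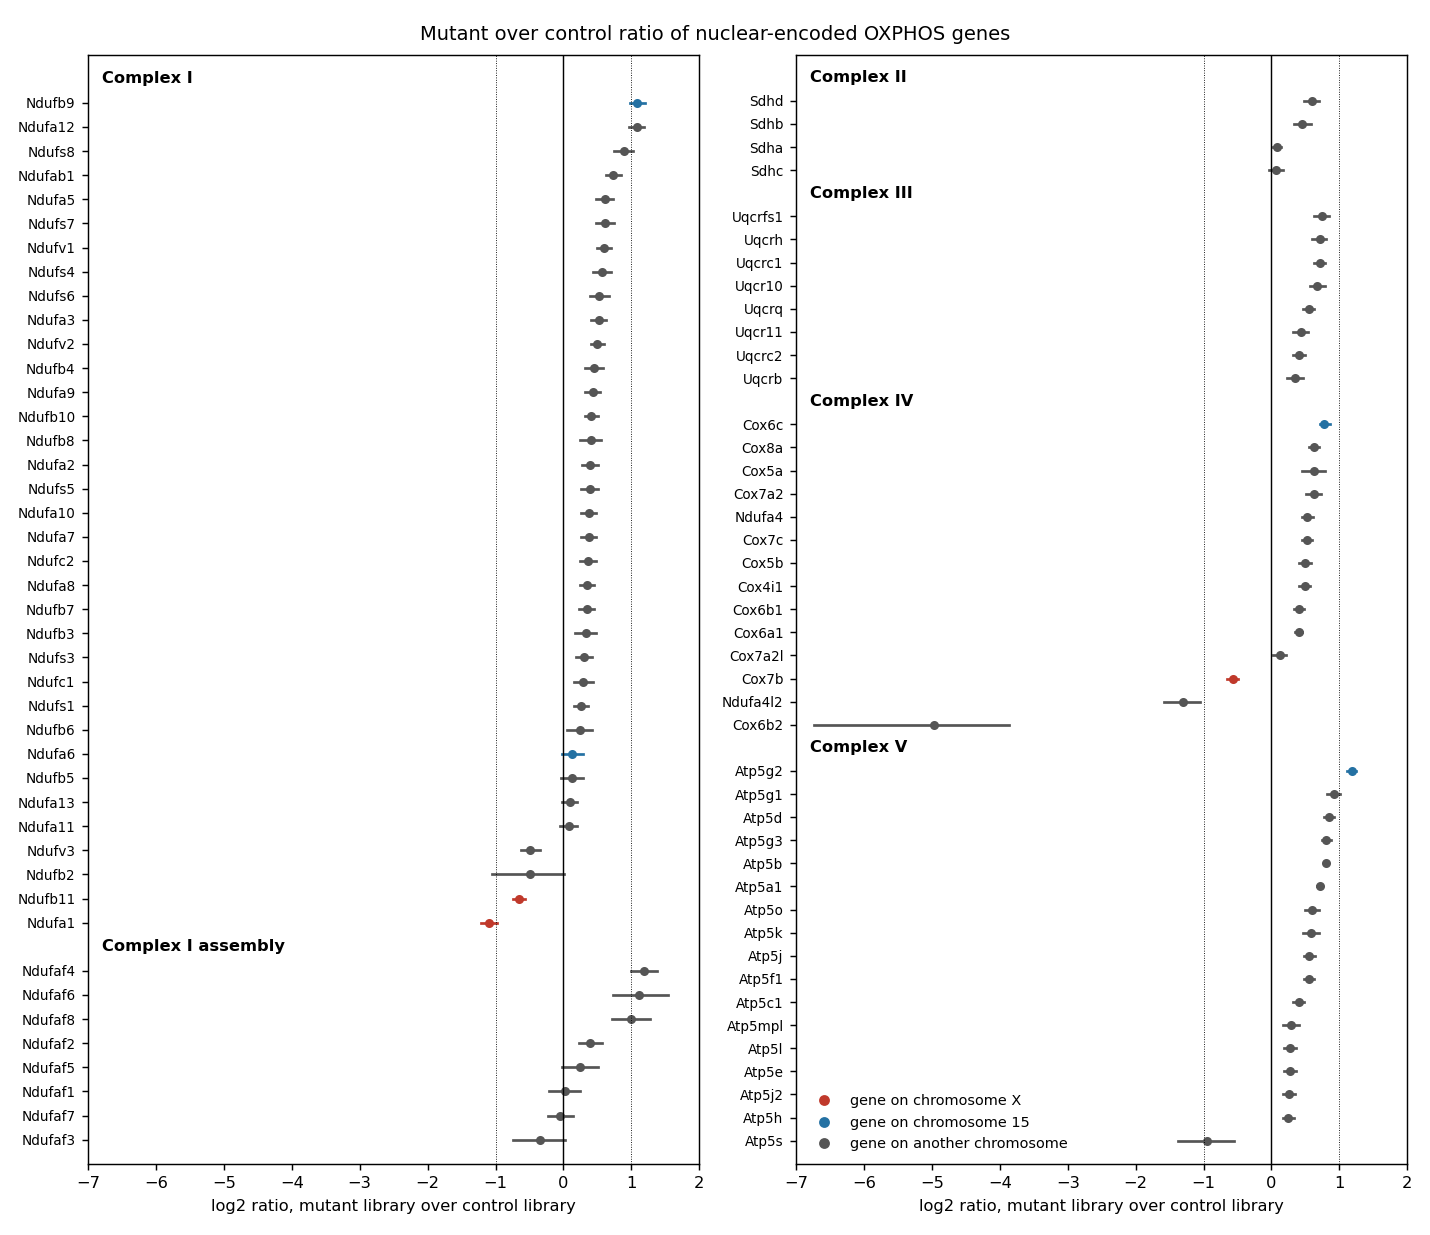
Log2 ratio of the mutant over the control library (x axis) for the OXPHOS genes listed (rows), grouped by complex, with 95% counting intervals as bars, from 1 library per genotype. Most points lie between 0 and 1, the whole interval of Atp5g2 lies above 1, and Cox6b2 (-4.97), Ndufa4l2 (-1.31) and the chromosome X gene Ndufa1 (-1.10) lie lowest; dotted lines mark 2-fold.

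Promoter windows, 250 bases before to 50 bases after the start of a gene, were found for 71 of the 87 genes in RefSeq on GRCm38.p6. They were searched on both strands for motifs of factors known to act on many OXPHOS promoters. The NRF1 motif, GCGCA and GCGC with any 1 base between them, was in 19 of the 71 (26.8%), against 12.3% of 8796 genes with at least 100 counts and 5.19% of all 27025 genes in the promoter table. The ETS motif CCGGAAG, the kind GABP binds, was in 18 (25.4%), against 21.6% and 9.93%. The YY1 motif AANATGGCG was in 11 (15.5%), against 6.56% and 2.76%. Genes with a motif had a median log2 ratio of 0.45 for NRF1, 0.42 for ETS and 0.53 for YY1, and genes without it had 0.41 in each case. None of these motifs was found for 30 of the 71 genes, and 7 genes had more than 1 kind. For 5 genes with more than 1 window, a motif in any window was counted.

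Shown here are the windows of the gene called higher and of the paralogs Cox6b2 and Cox6b1, whose ratios differed most within an isoform pair. Each reads 5′ to 3′ on the gene's strand, which is the minus strand for all of them, and capitals mark a motif match. The Atp5g2 window (chr15:102670998-102671297) holds an NRF1 motif, the Cox6b1 window (chr7:30626065-30626364) an ETS motif read on the other strand as CTTCCGG, and the Cox6b2 window (chr7:4753045-4753344) none of the motifs.
Atp5g2: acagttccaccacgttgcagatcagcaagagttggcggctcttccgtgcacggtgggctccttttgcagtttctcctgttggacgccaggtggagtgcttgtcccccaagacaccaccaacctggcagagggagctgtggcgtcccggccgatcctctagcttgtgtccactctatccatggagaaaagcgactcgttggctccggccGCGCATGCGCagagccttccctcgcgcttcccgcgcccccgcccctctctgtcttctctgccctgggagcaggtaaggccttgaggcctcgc
Cox6b2: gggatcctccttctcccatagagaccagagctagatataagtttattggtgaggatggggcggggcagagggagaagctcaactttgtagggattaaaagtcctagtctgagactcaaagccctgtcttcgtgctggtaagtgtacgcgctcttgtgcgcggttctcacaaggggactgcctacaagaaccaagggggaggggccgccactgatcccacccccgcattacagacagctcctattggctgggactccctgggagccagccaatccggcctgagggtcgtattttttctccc
Cox6b1: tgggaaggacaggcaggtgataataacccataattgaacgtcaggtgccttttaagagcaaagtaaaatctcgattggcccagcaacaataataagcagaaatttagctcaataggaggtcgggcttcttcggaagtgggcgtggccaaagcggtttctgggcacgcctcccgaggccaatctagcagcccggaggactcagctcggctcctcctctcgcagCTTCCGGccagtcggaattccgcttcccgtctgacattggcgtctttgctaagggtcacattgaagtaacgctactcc

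Complex I had 36 structural genes, with a median log2 ratio of 0.37 (1.29-fold) and 32 of 36 above 1. Beyond 1.5-fold, 4 (11.1%) were higher and 1 (2.78%) lower, against 16.3% and 15.3% of all genes, and none was called beyond 2-fold. Its summed counts were 42283 in the mutant and 45022 in the control library, a scaled ratio of 1.25 (1.233 to 1.266).

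The nuclear core subunits named here, among them holders of the flavin and of the iron-sulfur clusters that carry the electrons, were above 1. Ndufs8, one of the subunits that lead electrons to quinone, had 957 counts in the mutant and 688 in the control library, the highest ratio of the core at 1.85 (1.68 to 2.04). Ndufs7, beside the quinone site, had a ratio of 1.53 (1.39 to 1.67), and Ndufv1, which binds NADH, had 1.51 (1.41 to 1.62). Ndufv2, next to Ndufv1, had a ratio of 1.41 (1.32 to 1.52). Ndufs3, of the same arm as Ndufs7, had 1.24 (1.14 to 1.34), and Ndufs1, the largest iron-sulfur subunit, had 1.20 (1.11 to 1.29). With the length and GC trend removed, the median of the core was 0.27 and that of the 29 accessory subunits -0.03.

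The accessory subunits, which surround the core and are needed for its assembly and stability, ranged more widely. Ndufb9 had 1818 counts in the mutant and 1138 in the control library, a ratio of 2.13 (1.97 to 2.29), and Ndufa12 had 1900 and 1198, a ratio of 2.11 (1.96 to 2.27). Their lower bounds fell just short of 2-fold. The third accessory gene beyond 1.5-fold, Ndufab1, which encodes the mitochondrial acyl carrier protein, had a ratio of 1.66 (1.54 to 1.80). At the other end, Ndufa1 had 857 counts in the mutant and 2443 in the control library, 2.14-fold lower (1.98 to 2.32), so its interval also just reached within 2-fold. With other library scalings it was called lower, as with total counts at 0.435 (0.402 to 0.470). Ndufb11 had 1520 and 3184 counts, 1.57-fold lower (1.48 to 1.68), and Ndufv3 had 698 and 1300, 1.40-fold lower (1.28 to 1.54). The interval of Ndufb2, at 0.702 (0.482 to 1.01), included 1.

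Per length, the order within complex I changed between the libraries. The highest level was that of Ndufa7 in the mutant library, at 154 CPM per kilobase against 119 in the control. Ndufa1, at 118 CPM per kilobase in the mutant and 252 in the control library, had the highest level of the control.

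The 8 complex I assembly factors, which are not part of the finished enzyme, had a median log2 ratio of 0.32 with a wide interquartile range of 1.02. Ndufaf4 had 628 counts in the mutant and 368 in the control library, a ratio of 2.27 (1.99 to 2.59), Ndufaf6 had 138 and 84, a ratio of 2.19 (1.65 to 2.90), and Ndufaf8 had 258 and 172, a ratio of 2.0 (1.64 to 2.43). These 3 (37.5% of the 8) lay beyond 1.5-fold higher, against 16.3% of all genes. The other 5 ranged from 0.784 for Ndufaf3 (0.600 to 1.02) to 1.31 for Ndufaf2 (1.17 to 1.48). A further 7 complex I assembly genes with other names had a median of 0.17. Of these, 6 were above 1, up to Ecsit at 1.58 (1.32 to 1.90). The exception was Tmem126b, an assembly factor of the membrane arm, with 205 and 505 counts, 1.85-fold lower.

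Complex II, the succinate dehydrogenase that also belongs to the TCA cycle, differed little, with a median log2 ratio of 0.27 over its 4 genes. Sdha, the flavoprotein, had 4503 counts in the mutant and 5671 in the control library, a ratio of 1.06 (1.02 to 1.10). Sdhc, a membrane anchor, had 1167 and 1480, a ratio of 1.05 (0.971 to 1.13), whose interval included 1. Sdhb, the iron-sulfur subunit, had 1159 and 1125, a ratio of 1.37 (1.26 to 1.49). Sdhd, the other membrane anchor, had 1579 and 1392, a ratio of 1.51 (1.40 to 1.62). The counting intervals of Sdhb and Sdhd did not overlap those of Sdha and Sdhc. Per length, Sdha was the highest in both libraries, at 89.3 CPM per kilobase in the mutant and 84.5 in the control.

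All 8 complex III genes were higher in the mutant library, with a median log2 ratio of 0.61 (1.53-fold). Of these, 3 (37.5%) lay beyond 1.5-fold, against 16.3% of all genes. Uqcrfs1, the Rieske iron-sulfur protein, had 1565 counts in the mutant and 1248 in the control library, a ratio of 1.67 (1.55 to 1.80). Uqcrc1, a core protein, had a ratio of 1.64 (1.55 to 1.73), and Uqcrh, a small subunit, had 1.63 (1.52 to 1.75). The other core protein, Uqcrc2, had 1.33 (1.25 to 1.41), and the lowest was the small subunit Uqcrb at 1.27 (1.17 to 1.38). The highest level per length in the mutant library was that of Uqcr10, at 201 CPM per kilobase against 126 in the control. In the control library it was that of Uqcr11, at 138 against 187 in the mutant. The summed ratio was 1.49 (1.458 to 1.527), and with the length and GC trend removed the median was 0.31 and Uqcr11 lay below 1, at a log2 ratio of -0.08.

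The naming rule does not take in cytochrome c1 or cytochrome c, which carry electrons within and out of complex III, and both exceeded every complex III member. Cyc1 had 2510 counts in the mutant and 1177 in the control library, a ratio of 2.84 (2.65 to 3.04), and Cycs had 3990 and 2381, a ratio of 2.23 (2.12 to 2.35). Both were called higher.

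Complex IV, cytochrome c oxidase, had 14 genes with a median log2 ratio of 0.49 (1.41-fold). It held both genes called lower, which were 14.3% of its genes, against 7.95% of all genes. Of these, Cox6b2 passed the minimum through the control library alone, and Ndufa4l2 is no standard structural subunit. The share therefore says nothing about complex IV subunits in general. Cox6c was its highest, with 3721 counts in the mutant and 2873 in the control library, a ratio of 1.72 (1.64 to 1.81). Cox6a1 was the most abundant per length, at 537 CPM per kilobase in the mutant and 407 in the control. Cox7b was lower, with 1804 and 3561 counts, 1.48-fold (1.40 to 1.57).

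Several complex IV subunits exist as a general and a tissue-bound isoform, and the general isoforms carried nearly all counts. Cox4i1 had 3065 counts in the mutant and 2903 in the control library, a ratio of 1.40 (1.33 to 1.48), while its hypoxia- and lung-associated paralog Cox4i2 had 9 and 12. Cox6a1 had 5330 and 5373, a ratio of 1.32 (1.27 to 1.37), while the heart and muscle form Cox6a2 had 24 and 4. Cox7a2 had 1566 and 1357, a ratio of 1.54 (1.43 to 1.65), and Cox7a2l, found in supercomplexes, had 1838 and 2243, a ratio of 1.09 (1.02 to 1.16), while the heart and muscle form Cox7a1 had 5 and 4. Cox8a had 3321 and 2871, a ratio of 1.54 (1.46 to 1.62), while Cox8b and Cox8c had 0 in both libraries.

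The Cox6b paralogs also had most counts in the general form, but their ratios lay far apart. Cox6b2, known as the testis isoform, had 5 counts in the mutant and 229 in the control library, 34.4-fold lower (14.5 to 107). The general form Cox6b1 had 2795 and 2800, a ratio of 1.33 (1.26 to 1.40). Per length, Cox6b2 stood at 0.520 CPM per kilobase in the mutant and 17.9 in the control, far below Cox6b1 at 260 and 196. The difference therefore concerns a minor transcript in both libraries. Kmt5c, the next protein-coding gene on 1 side of Cox6b2 in RefSeq's order on chromosome 7, had 284 counts in the mutant and 589 in the control library, 1.56-fold lower (1.35 to 1.80). Fam71e2, on its other side, had 0 in both. No strand setting is stated for the counting, so reads that neighbouring or overlapping genes share cannot be told apart.

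Ndufa4l2, a paralog of the complex IV subunit Ndufa4 that is known to be induced by hypoxia and to lower complex I activity, had 155 counts in the mutant and 514 in the control library, 2.49-fold lower (2.08 to 3.0). At a 99% interval, which reached a ratio of 0.508, that call was lost. Ndufa4 had 2323 and 2146, a ratio of 1.44 (1.36 to 1.53). The paralogs thus lay on opposite sides of 1, as did Cox6b2 and Cox6b1.

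**Figure D2:**
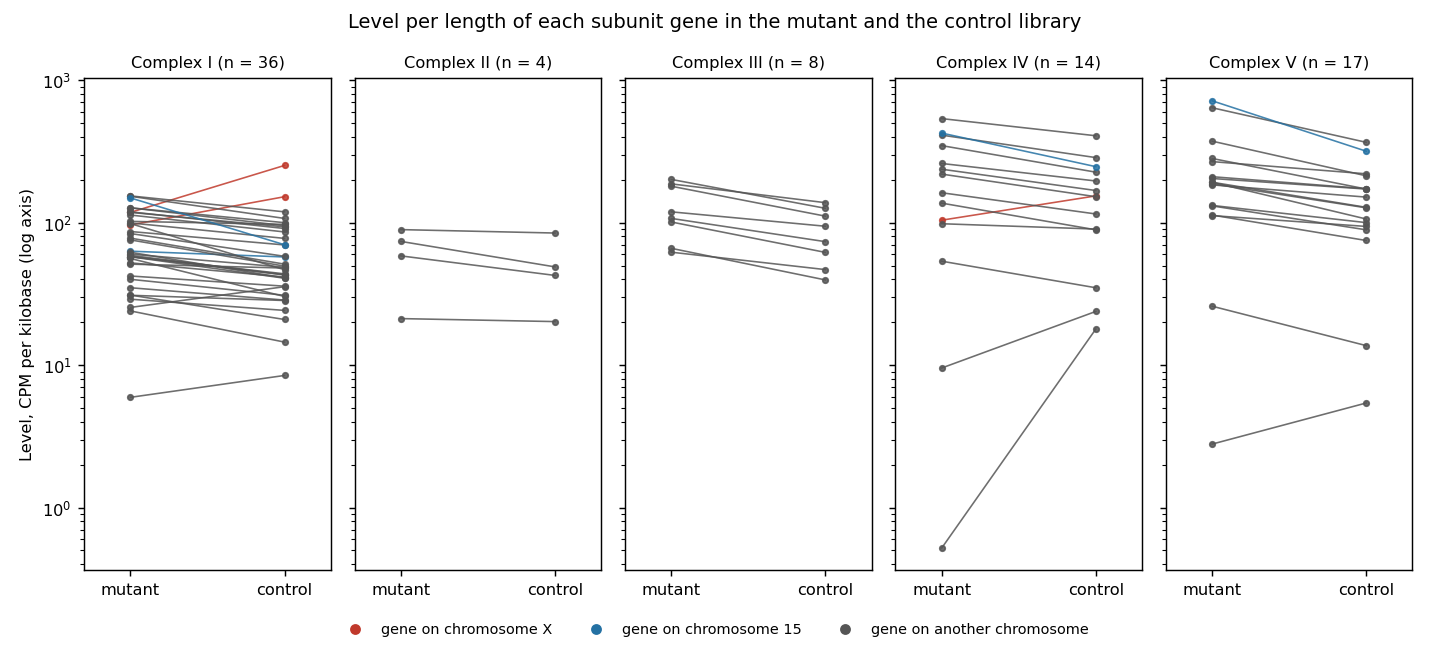
Level per transcript length (CPM per kilobase, log axis) of each structural and prefix-sharing gene of complexes I to V in the mutant (left) and control (right) library, with a line per gene and 1 library per genotype. Complexes IV and V hold the highest levels, such as Atp5g2 at 716 in the mutant and 317 in the control library, and the steepest line is that of Cox6b2, at 0.520 and 17.9.

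Complex V had 17 genes with a median log2 ratio of 0.56 (1.47-fold) and the largest summed difference of the complexes, at 1.61 (1.589 to 1.624). Of these genes, 6 (35.3%) lay beyond 1.5-fold higher, against 16.3% of all genes. The 3 genes for the c-ring, the rotor that protons turn, encode the same mature protein and had a summed ratio of 1.98 (1.921 to 2.032). Atp5g2 had 5489 counts in the mutant and 3230 in the control library, a ratio of 2.26 (2.16 to 2.36). Atp5g1 had 2125 and 1494, a ratio of 1.89 (1.77 to 2.02), and Atp5g3 had 4630 and 3518, a ratio of 1.75 (1.68 to 1.83). Atp5g2 was called higher, and its interval did not overlap those of Atp5g1 and Atp5g3. The call was lost with totals that left out the 100 most abundant genes, at 2.07 (1.98 to 2.16), and with the length and GC trend removed, at 1.58 (1.51 to 1.65).

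The 5 genes of F1, the part that makes ATP, had a summed ratio of 1.65 (1.626 to 1.673). The delta subunit Atp5d had a ratio of 1.80 (1.71 to 1.90). The catalytic beta subunit Atp5b, with the most counts of all 87 genes, had 21329 in the mutant and 16218 in the control library, a ratio of 1.75 (1.71 to 1.79). The alpha subunit Atp5a1 had 12098 and 9840, a ratio of 1.64 (1.59 to 1.68). The gamma subunit Atp5c1 had 1.32 (1.25 to 1.39) and the epsilon subunit Atp5e 1.22 (1.14 to 1.29), so the 5 F1 genes did not move by a common factor.

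The 4 genes of the peripheral stalk, which holds F1 still, had a summed ratio of 1.40 (1.365 to 1.444), from Atp5h at 1.18 to Atp5o at 1.52. The 4 small membrane subunits had 1.26 (1.214 to 1.301). Atp5s, also called factor B, was the only complex V gene below 1, with 72 counts in the mutant and 186 in the control library, 1.94-fold lower (1.47 to 2.59). Outside the naming rule, the ATP synthase inhibitor Atpif1 had 604 and 749 counts, a ratio of 1.07, and Usmg5, a small subunit, had 1482 and 1379, a ratio of 1.43.

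Ratios also differed by chromosome. The 3 OXPHOS genes on chromosome X, Ndufa1, Ndufb11 and Cox7b, were all below 1, with a median log2 ratio of -0.65. They were 3 of the 10 OXPHOS genes below 1. Other genes on X behaved likewise: the 388 X genes with at least 100 counts had a median of -1.11, or 2.17-fold lower, with quartiles of -1.62 and -0.59. Only 7.22% of them had a ratio above 1. Set against the median of its own chromosome, Ndufa1 had a ratio of 1.01 (0.934 to 1.09), Ndufb11 1.38 (1.29 to 1.46) and Cox7b 1.46 (1.38 to 1.54), an alternative chosen after seeing the data. Xist, the RNA that coats the inactive X, had 9051 counts in the mutant and 21878 in the control library, a ratio of 0.550 (0.537 to 0.564).

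Chromosome 15 lay on the other side. Its 434 genes had a median log2 ratio of 0.57 (1.49-fold), with quartiles of 0.09 and 0.97, and 39.4% of them were beyond 1.5-fold higher. The medians of the other 18 autosomes lay between -0.06 and 0.19. Of the 4 OXPHOS genes on chromosome 15, Atp5g2, Ndufb9 and Cox6c each had the highest ratio of their complex. The fourth, Ndufa6, had a ratio of 1.10 (0.987 to 1.22). Cyc1 also lies on chromosome 15. Against the chromosome's own median, Atp5g2 had a ratio of 1.52 (1.45 to 1.59), Ndufb9 1.43 (1.32 to 1.54) and Cox6c 1.16 (1.10 to 1.22), so the call of Atp5g2 was lost. What lies behind the chromosome-wide differences was not tested. Over the 80 OXPHOS genes on neither X nor 15, the median stayed at 0.41, with 73 of 80 above 1.

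**Figure D3:**
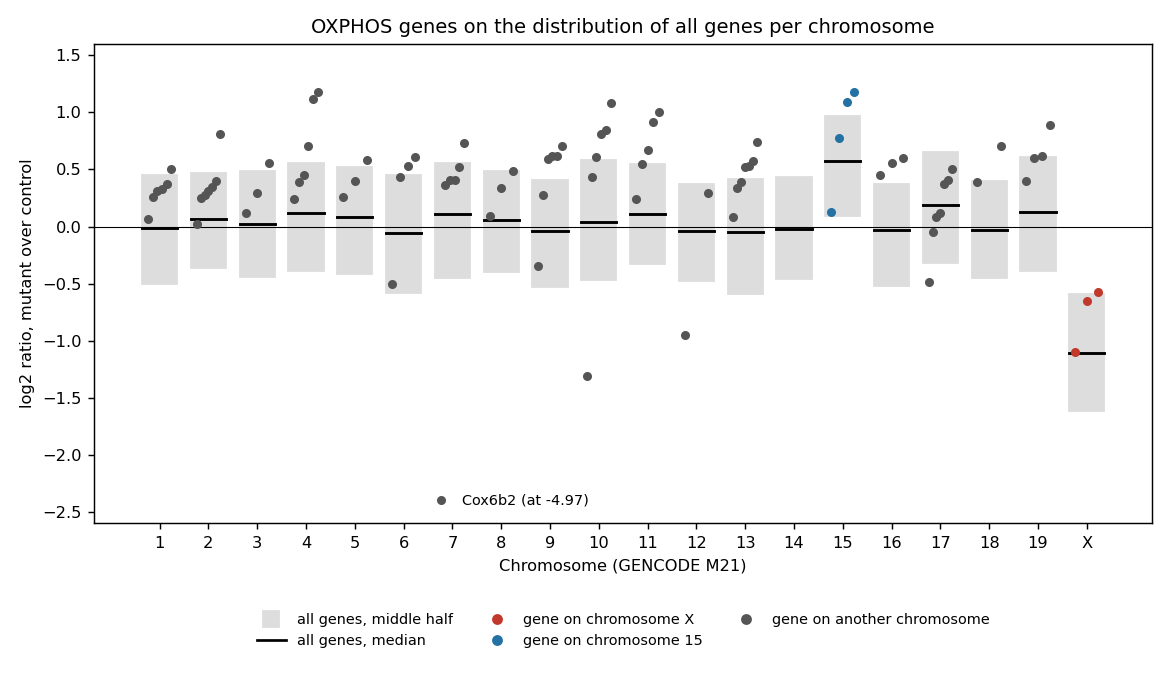
Log2 ratio of the mutant over the control library (y axis) of the OXPHOS genes (points) by chromosome (x axis), over the middle 50% (grey bar) and median (black line) of all genes with at least 100 counts, from 1 library per genotype. All genes centre on -1.11 on chromosome X and 0.57 on chromosome 15, and the 3 OXPHOS genes on X lie within or just above the grey bar; Cox6b2 is drawn at the lower edge.

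Mitochondrial DNA encodes a further 13 subunits. Of these genes, 10 had at least 100 counts, with a median log2 ratio of 0.14 against 0.41 for the nuclear genes, and none was called beyond 2-fold. With the length and GC trend removed the order turned round, to 0.24 for the mitochondrially encoded and 0.08 for the nuclear genes. The complex I subunit mt-Nd1 was the highest, with 40534 counts in the mutant and 32206 in the control library, a ratio of 1.67 (1.65 to 1.70). The complex I subunit mt-Nd5 was the lowest, with 20111 and 31279, a ratio of 0.855 (0.840 to 0.871). The complex IV subunit mt-Co1 had the most counts, 87250 and 118373, a ratio of 0.980 (0.972 to 0.989). Other subunits had very few, with 19 and 29 for mt-Co2, 21 and 22 for mt-Co3 and 4 and 4 for mt-Nd4l. Of the genes in the median, mt-Atp8 had only 55 and 80 and mt-Atp6 192 and 186. How reads were counted is not given, so counts may not follow transcript levels between these genes. Subunits of complex I thus lay on both sides of 1 by far more than their counting error.

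Genes that help build the complexes or set their number were also examined. Among 27 assembly factors of complexes II to V the median was 0.15, and 6 (22.2%) were beyond 1.5-fold higher and 1 (3.7%) lower. The shares of all genes were 16.3% and 15.3%. With the length and GC trend removed the median of these factors was 0.08, the same as for the OXPHOS genes. Cox10, which makes the haem of complex IV, had 414 counts in the mutant and 237 in the control library, a ratio of 2.32 (1.98 to 2.74). Sdhaf4, which helps mature Sdha, had 168 and 447, 2.0-fold lower. Of 12 regulators of mitochondrial genes the median was 0.28, or 0.31 with the length and GC trend removed. Of these, 1 (8.33%) was called higher, against 6.70% of all genes. This was Pprc1, a coactivator of the PGC-1 family, with 1876 and 1093 counts and a ratio of 2.28 (2.12 to 2.46). Tfam, which packages and transcribes mitochondrial DNA, had 1.6 (1.43 to 1.78). The factors whose motifs were searched had ratios of 1.15 for Nrf1, 0.932 for the GABP subunit Gabpa and 1.3 for Yy1. Ppargc1a, the best known regulator of mitochondrial biogenesis, had 5 and 12 counts, and Ppargc1b had 11 and 10.

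The lists for the mitochondrial ribosome and for import had higher medians than the subunits, also with the length and GC trend removed (0.55 and 0.84, against 0.08). The 76 measured genes of the mitochondrial ribosome had a median log2 ratio of 0.78, from Mrps31 at 0.990 to Mrpl12 at 2.87. Of these, 37 (48.7%) were beyond 1.5-fold higher, against 16.3% of all genes. At 2-fold, 9 (11.8%) were called higher, against 6.70% of all genes, and 0 lower, against 7.95%. The 24 measured import and chaperone genes had a median of 0.95, with 9 (37.5%) called higher, against 6.70% of all genes, and 0 lower. They included the small chaperone Timm10 with 308 counts in the mutant and 107 in the control library, a ratio of 3.83 (3.06 to 4.82), and the folding chaperone Hspd1 with 10366 and 4593, a ratio of 3.0 (2.90 to 3.11). Timm17b, on X, was the lowest at 2.11-fold lower. The 6 carriers and channels that move ATP, ADP and phosphate had a median of 0.43. The 8 uncoupling and antioxidant genes had 0.18, below the OXPHOS median, from Ucp2 with 60 and 150 counts to Txn2, called higher, with 2570 and 1282.

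The TCA cycle, which feeds electrons to complexes I and II, had a median of 0.44 over 16 genes, and none was called beyond 2-fold. With the length and GC trend removed its median was 0.39, against 0.08 for the OXPHOS genes. Idh3a was the highest, with 2385 counts in the mutant and 1699 in the control library, a ratio of 1.87 (1.75 to 1.99). Its partner subunit Idh3g, on X, had 1273 and 2746, 1.62-fold lower, and Pdha1 of the pyruvate dehydrogenase, also on X, was the lowest with 2722 and 6487, 1.79-fold lower. Both lay on X like the lowest complex I subunits.

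Cytosolic ribosomal proteins and glycolysis, which share high expression or energy supply with OXPHOS, are given only for scale. The 78 ribosomal protein genes had a median log2 ratio of 0.92, from Rps4x at 0.791 to Rpl8 at 3.22. Of these, 70 (89.7%) were beyond 1.5-fold higher, against 16.3% of all genes. At 2-fold, 16 (20.5%) were called higher, against 6.70% of all genes, and 0 lower, against 7.95%. The 20 glycolysis genes had a median of 0.60. Among them, 4 (20%, against 6.70% of all genes) were called higher, namely Pkm (2.53), Gapdh (2.36), Eno1 (2.25) and Slc16a1 (2.35). Only 1 (5%, against 7.95%) was called lower. That was Ldhb, a lactate dehydrogenase subunit, with 139 counts in the mutant and 1130 in the control library, 6.11-fold lower. The OXPHOS median of 0.41 thus lay below those of both lists and above that of all genes.

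**Figure D4:**
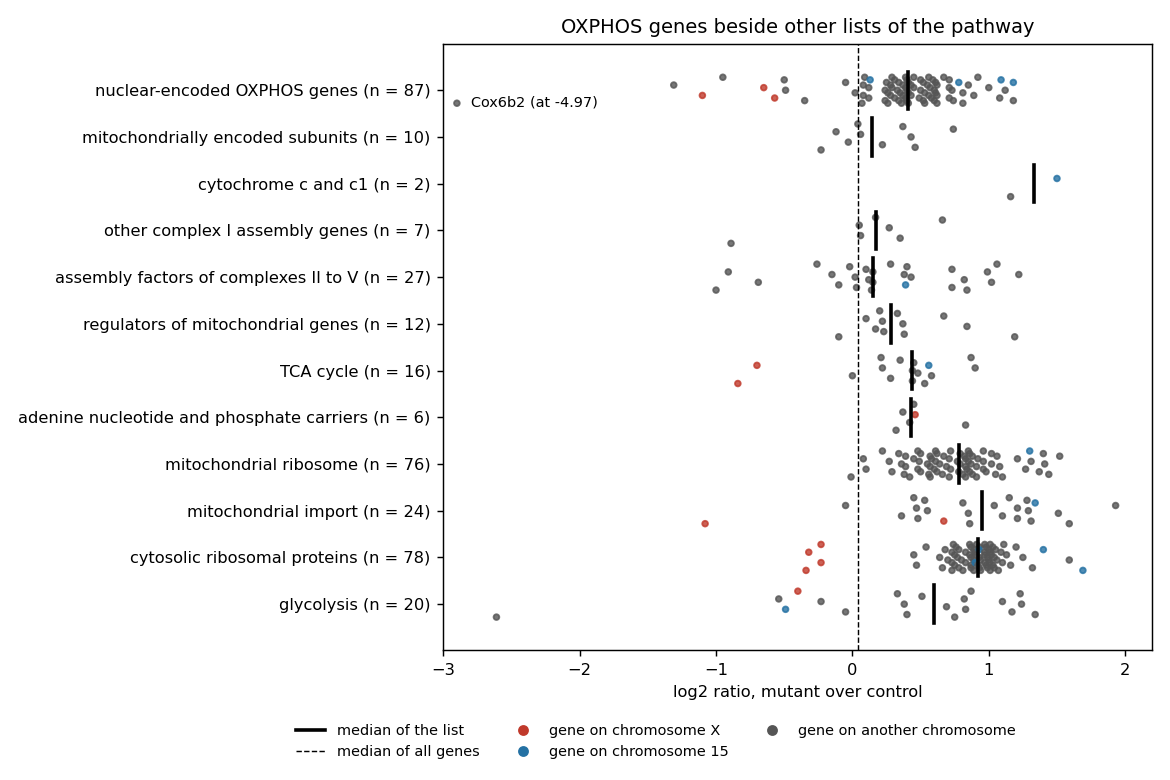
Log2 ratio of the mutant over the control library (x axis) of each gene with at least 100 counts (points) in the nuclear OXPHOS set and 11 other lists (rows), with the median of each list (bar) and of all genes (dashed line), from 1 library per genotype. Import (0.95), cytosolic ribosomal (0.92) and mitochondrial ribosome (0.78) medians lie to the right of the OXPHOS median (0.41), and 8 of the 10 chromosome X genes of the other lists lie left of 0; Cox6b2 is drawn at the left edge.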

How the data were processed

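RNA sequencing was analysed for 1 mutant and 1 control library of sorted mouse marrow MSPC. The authors deposited raw read counts (unnormalized whole numbers) for 35275 Ensembl identifiers, of which 34490 matched a symbol in the supplied name table. The submitters' processing notes name CASAVA, TopHat, edgeR and the build mm9, with no versions. How reads were counted, with which annotation and strand setting, is not given here, so subunit genes may share reads with overlapping or antisense genes and with processed copies. No summary rows were present.

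Library totals were multiplied by TMM factors (edgeR 4.0.16, R 4.3.3; 0.9654 for the mutant and 1.0358 for the control library). Ratios of scaled counts have exact Clopper-Pearson intervals (SciPy 1.17.1). Intervals cover counting error only, and reads are not independent molecules. Log2 ratios use a prior count of 0.5. CPM per kilobase uses the length of 1 representative GENCODE M21 transcript per gene, which understates Atp5g1 (4715 nucleotides). Chromosomes also come from GENCODE M21, on GRCm38 and not mm9. The length and GC trend was a loess fit (span 0.5) over all genes with at least 100 counts. The interval and call rules were tested on simulated libraries with known folds.

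The genes and lists were chosen with earlier results of these data known. Named genes are those called beyond 2-fold, the highest, lowest and most abundant of each complex, isoform sets, the complex I core, complex II, genes at the count minimum and, of other lists, the extremes. Not every gene this rule takes in is reported here. Others, including the chromosome comparisons and the neighbours of Cox6b2, were chosen after their values were seen. Alternatives were other library scalings, including DESeq2 1.42.0 size factors, count minimums, interval levels and prior counts, removal of the trend, and leaving out genes.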

Additional observations from a re-analysis of the deposited data

How the results depend on the processing

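No paired analysis was possible because there was 1 library per genotype and the results come from no test. For the same reason no library could be left out, and no result is checked against the spread between animals. No gene called beyond 2-fold with TMM factors reversed its direction, but other genes changed side of 1. Some of these were not near 1, such as Uqcr11 (1.35) with the trend removed and Ndufa1 (0.467) against its chromosome's median. The number that went from above to below 1 was 24 of 87 with the length and GC trend removed, 5 with total counts (Sdha and Sdhc among them), 7 without the 100 most abundant genes and 1 with upper-quartile factors. Against each chromosome's own median 4 did so, and the 3 genes on X went above 1. The share of all genes was taken with the main setting only, so counts of OXPHOS genes under the alternatives have no background beside them. The summary values were compared with the main setting under each alternative that applied to them. By limits that differed between lists and are not given here, 269 of these comparisons were labelled as kept and 35 as moved. With total counts, which shifted all lists alike, the OXPHOS median (0.41 to 0.31) was labelled moved. The complex II median (0.27 to 0.17) was labelled kept. The tally therefore does not measure how stable the values were. By the same limits, DESeq2 size factors, upper-quartile factors and a prior count of 2 moved no summary value.

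Library scaling multiplied the ratios of all genes by the same factor. The OXPHOS median minus that of all genes was therefore bound to stay at 0.37 under each of the 3 scalings below. With total counts, and with totals without mitochondrially encoded genes, the medians were 0.31 for the 87 OXPHOS genes, 0.27 for complex I and 0.82 for cytosolic ribosomal proteins, 6 OXPHOS genes lay beyond 1.5-fold lower, and 72 of 87 were above 1. With totals without the 100 most abundant genes, the median of all genes was -0.09 instead of 0.04. The medians were then 0.28 for OXPHOS, 0.25 for complex I, 0.16 for regulators, 0.31 for carriers and 0.80 for ribosomal proteins, 6 OXPHOS genes were beyond 1.5-fold lower, 70 of 87 were above 1, and 0 were called higher (Atp5g2 at 2.07, 1.98 to 2.16). Under these 3 scalings Ndufa1 was called lower, at 0.427 to 0.435, and under upper-quartile factors at 0.458.

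With the length and GC trend removed, medians were 0.08 for OXPHOS, 0.03 for complex I, 0.31 for complex III, 0.16 for complex V, 0.55 for the mitochondrial ribosome, 0.23 for carriers and 0.57 for cytosolic ribosomal proteins. Beyond 1.5-fold, 6 OXPHOS genes were then higher and 6 lower, with no share of all genes taken under this setting. Ndufaf4 (2.69) took the place of Atp5g2 (1.58) as the gene called higher, and Ndufa1 (0.349) was also called lower.

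At 99% intervals 1 gene was called lower, without Ndufa4l2. At a minimum of 1000 counts 0 were called lower and 1 was beyond 1.5-fold lower, since Cox6b2 and Ndufa4l2 fall below it. At a minimum of 20 counts or none, 2 were called higher, with Cox6a2 added. Structural subunits alone left 1 called lower. Without genes on X and 15, chosen after seeing the data, 0 were called higher. Against each chromosome's own median, 0 were called higher and the medians were 0.29 for complex I, 1.07 for cytochrome c and c1 and 0.86 for cytosolic ribosomal proteins.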
